A study of Mus musculus with 17 samples.

Results

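The comparison described here set knockout-labelled against wild-type myelo-dendritic progenitors (MDPs), on 6 of the 17 arrays of the series. All 28898 probe sets that name a single gene symbol were used, which gave 17097 genes. Wild-type MDPs came as 3 pools and MDPs labelled as deficient in IRF8 (interferon regulatory factor 8, titled IRF8_ko_MDP) as 3 pools. Each pool held sorted cells from 5 mice aged 6 to 10 weeks, and the gate on bone marrow took cells that were CD117+ and M-CSFR+ and negative for lineage markers, Sca1 and CD127. The remaining 11 arrays came from wild-type spleen macrophages, wild-type spleen granulocytes and MDPs of VENUS reporter mice sorted with or without VENUS. The labels give an IRF8-deficient genotype to both VENUS groups. Levels on these 11 arrays are given only where named, but the arrays also entered the fit's estimate of each gene's spread. Because mice were pooled, the spread between arrays is a spread between pools, and the variation from mouse to mouse was not measured. The labels do not name the IRF8 allele or the strain.

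MDPs are bone marrow cells that give rise to monocytes, macrophages and dendritic cells. IRF8 is a transcription factor of these cells, and mice without it are known to accumulate granulocytes and to lack several monocyte and dendritic cell populations. It binds DNA mainly with partners: with PU.1 at Ets-IRF composite elements, and with other IRF proteins at interferon-stimulated response elements.

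The Irf8 transcript did not separate the groups. Its log2 level was 10.27, 10.56 and 10.19 in wild-type pools 1, 2 and 3 and 10.32, 10.42 and 10.18 in knockout-labelled pools 1, 2 and 3. The groups overlapped, and the difference was -0.03 (SE 0.42, limma adjusted p 0.995). A second Irf8 probe set gave a difference of -0.05. No source used here places either probe set inside or outside the disrupted sequence. The transcript therefore leaves the label unchecked, and the arrays are called knockout-labelled throughout. In VENUS-negative MDPs the first Irf8 probe set stood at a mean log2 level of 5.87, and in VENUS-positive MDPs, with the same genotype label, at 10.88.

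The genes of the positive gate markers were read in both groups. Kit, which encodes CD117, stood at 7.50, 7.38 and 7.52 in the wild-type pools and 8.08, 8.21 and 8.08 in the knockout-labelled pools, a difference of 0.66 (SE 0.23) that did not pass the test (adjusted p 0.329). Csf1r, which encodes M-CSFR, was at 7.40 to 7.76 in wild-type and 7.19 to 7.47 in knockout-labelled pools, and the groups overlapped. Flt3 and Cx3cr1, which mark the MDP in textbook schemes, were at 7.71 to 8.69 and at 6.02 to 7.65 over the 6 arrays. Spi1, the gene of PU.1, differed by 0.03 (SE 0.16, adjusted p 0.993). Of lineage genes, Ms4a1 lay at 2.82 to 3.18 and Itgam at 2.50 to 3.86, while the lower quartile of an array was 3.18 to 3.26 and its median 4.33 to 4.41. The 2 genes listed as excluded by the gate had no measured value, and other lineage genes are not given here. The negative part of the gate was therefore not checked in full.

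Wild-type pool 3 was unlike wild-type pools 1 and 2. It lay more than 1 log2 unit above both of them in 392 genes and more than 1 below both in 25. The same counts were 70 and 65 for wild-type pool 1, and 201 and 62 for knockout-labelled pool 1, the knockout-labelled array with the most. A list of 26 secondary and tertiary granule genes of neutrophils also holds some receptors of myeloid cells. Its mean level was 4.62, 4.56 and 7.25 in wild-type pools 1, 2 and 3 and 6.19, 5.70 and 5.98 in the knockout-labelled pools. The mean of 28 erythroid genes was 5.72, 5.97 and 7.76 against 4.99, 5.06 and 5.01, and the mean of 18 eosinophil, basophil and mast cell genes was 5.85 in wild-type pool 3 and at most 4.09 in each of the other 5 arrays. Single genes showed the same array: Prg2, a granule protein of eosinophils, was at 4.47, 3.95 and 10.26 in the wild-type pools and 3.83 to 4.11 in the knockout-labelled pools. Gzma, a cytotoxic granule protease of NK cells, was at 2.99, 2.72 and 7.41 against 2.72 to 3.23. More mature cells in a sort and more of their RNA per cell cannot be told apart in pooled cells. Results that rest on these genes are therefore given with and without wild-type pool 3. That pool was set apart by its high levels of these genes. Leaving it out lowers their wild-type means by construction, so calls made without it are descriptive.

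**Figure D1:**
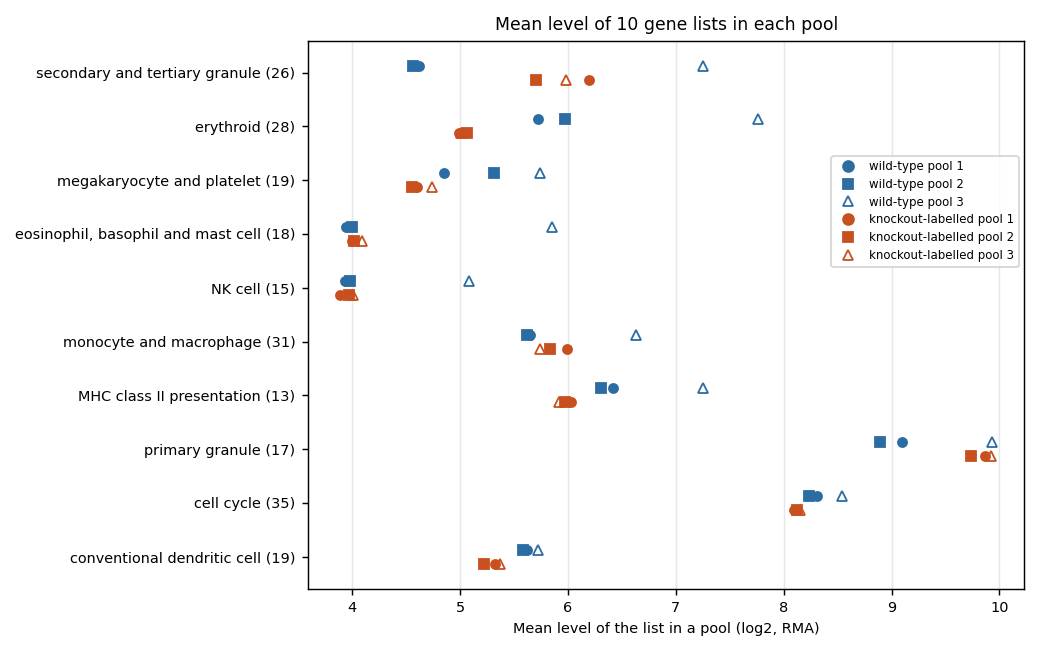
Mean log2 level of gene lists chosen from the 31 lists, in each of the 6 pools (blue, wild-type; orange, knockout-labelled; circle, square and open triangle, pools 1, 2 and 3). The other lists are not shown. Wild-type pool 3 lies above the other wild-type pools for the granule, erythroid and eosinophil lists. All 3 knockout-labelled pools lie below all 3 wild-type pools for the erythroid list, and also for the megakaryocyte, MHC class II, conventional dendritic cell and cell cycle lists.

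Between the groups, 155 of 17097 genes passed an adjusted p of 0.05, which is 0.907% of genes. Of these, 78 (0.456%) were higher and 77 (0.45%) lower in the knockout-labelled pools, and 130 differed at least 2-fold. These are the shares to set beside every count of called list members below. The lists and their members were chosen with earlier results of these data known, so such counts are descriptive. At an unadjusted p of 0.05, 1482 genes passed. The median difference over all genes was 0.01, and 5 to 95% of genes lay between -0.55 and 0.53. The 3 and 3 arrays did not overlap in any of the 155 genes; this was so in 14.7% of all genes, 7.64% higher and 7.02% lower. Without wild-type pool 3, 159 genes (0.93%) passed, 93 higher and 66 lower, and 113 of the 155 were among them. Leaving out each of the 6 arrays in turn, 79 of the 155 passed every time (32 higher, 47 lower). A fit of the 6 arrays alone called 46 genes (0.269%), 40 of them among the 155.

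**Figure D2:**
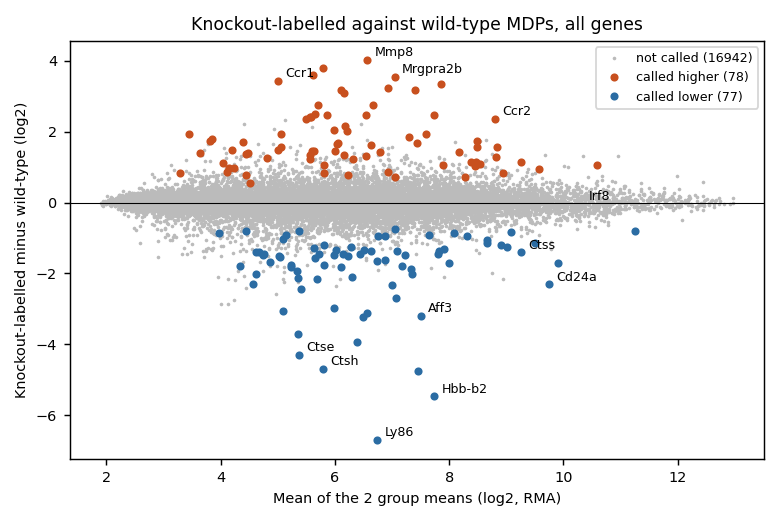
Log2 difference of each of 17097 genes (knockout-labelled minus wild-type) against its mean log2 level over the 6 arrays. Orange points are the 78 genes called higher, blue points the 77 called lower, and grey points the 16942 not called.

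The largest change was in Ly86, which encodes MD-1, the secreted partner that the Toll-like-receptor-related protein RP105 needs to reach the cell surface. Ly86 was at 10.27, 9.88 and 10.09 in the wild-type pools and at 3.87, 3.08 and 3.24 in the knockout-labelled pools. The groups lay far apart, and the knockout-labelled values were near the array's lower quartile, so no fold is given. The difference was -6.69 (SE 0.29, adjusted p 1.62e-08). Of 20 measured genes of Toll-like receptor complexes, Ly86 was the gene that fell, and Tlr5, the flagellin receptor, was the gene that rose, by 0.77 (SE 0.14, adjusted p 0.0151). Tlr5 stood at 4.02 to 4.13 in wild-type and 4.66 to 5.05 in knockout-labelled pools, around the array median. Its call was lost without knockout-labelled pool 3 or without wild-type pool 1 or 3, with adjusted p up to 0.0707. The median over the 20 genes was 0.32.

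Cathepsins, the proteases of lysosomes and endosomes, moved in both directions. Ctsh, an aminopeptidase, was at 7.98, 7.52 and 8.91 in the wild-type pools and at 3.78, 3.23 and 3.31 in the knockout-labelled pools, a difference of -4.70 (SE 0.29, adjusted p 1.36e-06). Ctse, an aspartic protease, was at 7.01, 6.71 and 8.85 against 3.28, 2.92 and 3.51, a difference of -4.29 (SE 0.61, adjusted p 0.00225). The groups did not overlap in either gene, and the knockout-labelled values of both lay near the lower quartile. Ctss, which cuts the invariant chain of MHC class II in antigen-presenting cells, stayed well above the array median in both groups. It was at 9.68, 9.66 and 10.52 in wild-type and 8.73, 8.62 and 8.32 in knockout-labelled pools, 2.64-fold lower (difference -1.40, SE 0.22, adjusted p 0.00499). Ctsl rose from 5.57, 6.11 and 6.55 to 7.43, 7.72 and 7.33 (difference 1.42, SE 0.26, adjusted p 0.0151), and lost its call without knockout-labelled pool 2 or wild-type pool 1 or 2 (adjusted p up to 0.0817). Its other probe set differed by 0.17. In all, 3 of 18 measured cathepsins and cystatins fell and 1 rose, with a median of -0.06, and 0.05 without wild-type pool 3. None of 17 lysosome and phagocytosis genes was called; Hexa, a lysosomal hexosaminidase subunit, came nearest, at -0.75 (SE 0.18, adjusted p 0.0754).

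Of 13 genes of MHC class II presentation, Ctss and H2-DMa fell and none rose. H2-DMa, a chain of the peptide-exchange factor of MHC class II, was at 8.55, 8.59 and 8.55 in wild-type and 7.38, 7.13 and 7.24 in knockout-labelled pools, 2.48-fold lower (difference -1.31, SE 0.25, adjusted p 0.0169). All wild-type pools were above all knockout-labelled pools, and wild-type pool 3 did not stand apart. The call was lost without knockout-labelled pool 2 or 3 or wild-type pool 1 or 2, with adjusted p up to 0.0823. The median of the 13 genes was -0.68, and -0.29 without wild-type pool 3. Ciita, the master coactivator of these genes, was at a mean of 4.55 and 4.57 and did not pass the test (adjusted p 0.993).

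Genes reported as IRF8 targets were read as a list of 16 measured members, of which Ctss and Aif1 fell and none rose. Aif1 encodes IBA1, an actin-binding protein of macrophages. It was at 5.90, 4.28 and 6.95 in the wild-type pools and 3.37, 3.14 and 3.71 in the knockout-labelled pools, a difference of -2.30 (SE 0.50, adjusted p 0.0426). The call held only without wild-type pool 2, and was lost on leaving out any 1 of the other 5 arrays (adjusted p up to 0.164). Klf4, a monocyte factor, was at a mean of 7.36 and 5.74 (difference -1.61, SE 0.58, adjusted p 0.329), and Cybb, a subunit of the phagocyte oxidase, at 7.66 and 8.20 (adjusted p 0.954). The list's median was -0.27, and -0.12 without wild-type pool 3. None of 8 IRF family genes was called; Irf5 differed by -0.64 (adjusted p 0.198) and Irf1 by 0.50 (adjusted p 0.306).

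The 250 bases before each annotated start of a gene were searched on both strands for 2 motifs of 10 bases. The first was GAAA, any 2 bases and GAAA, a core of the interferon-stimulated response element; the second was GGAA, any 2 bases and GAAA, a core of the Ets-IRF composite element. They share their second half-site, and 0.221% of genes held both. A gene with several entries was counted when any of them held the letters. The sequences are RefSeq entries on GRCm38.p6, written 5′ to 3′ on the gene's strand with the match in capitals. They are shown for the gene with the largest fall, for 3 falls with a response-element match (Ctss, Aif1 and Trim30a) and for a rise with such a match (Gbp2). Trim30a has 2 entries, and an entry with a match was taken for display. Ly86 lies at chr13:37345095-37345344 on the plus strand, Ctss at chr3:95526536-95526785 on the plus strand, Aif1 at chr17:35176053-35176302 on the minus strand, Trim30a at chr7:104465194-104465443 on the minus strand and Gbp2 at chr3:142620413-142620662 on the plus strand.
Ly86: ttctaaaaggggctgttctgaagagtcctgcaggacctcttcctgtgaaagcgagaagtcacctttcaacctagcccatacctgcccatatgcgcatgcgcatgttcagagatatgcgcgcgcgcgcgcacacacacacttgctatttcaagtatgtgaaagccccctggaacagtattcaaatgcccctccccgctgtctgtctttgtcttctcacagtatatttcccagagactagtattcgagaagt
Ctss: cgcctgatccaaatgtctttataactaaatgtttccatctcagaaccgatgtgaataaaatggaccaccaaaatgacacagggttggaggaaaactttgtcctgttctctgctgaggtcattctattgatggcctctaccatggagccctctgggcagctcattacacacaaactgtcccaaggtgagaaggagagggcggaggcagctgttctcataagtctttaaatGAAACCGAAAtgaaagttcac
Aif1: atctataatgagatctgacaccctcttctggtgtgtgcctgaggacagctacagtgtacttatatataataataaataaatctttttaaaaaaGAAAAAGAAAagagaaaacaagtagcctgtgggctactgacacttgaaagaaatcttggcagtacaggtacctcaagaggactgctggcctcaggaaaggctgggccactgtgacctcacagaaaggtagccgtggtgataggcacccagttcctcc
Trim30a: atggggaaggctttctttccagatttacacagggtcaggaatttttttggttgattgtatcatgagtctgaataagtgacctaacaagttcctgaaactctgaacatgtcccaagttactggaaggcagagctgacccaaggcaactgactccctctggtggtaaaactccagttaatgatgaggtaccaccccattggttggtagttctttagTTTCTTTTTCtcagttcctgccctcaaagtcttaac
Gbp2: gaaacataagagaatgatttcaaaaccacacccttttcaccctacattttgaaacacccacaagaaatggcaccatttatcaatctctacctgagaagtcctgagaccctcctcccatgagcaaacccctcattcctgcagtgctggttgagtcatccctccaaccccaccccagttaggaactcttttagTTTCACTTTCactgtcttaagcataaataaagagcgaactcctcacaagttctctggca

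The match begins 21 bases before the start in Ctss and 157 before it in Aif1. In Trim30a (36 bases) and Gbp2 (59 bases) the match is on the opposite strand and so reads TTTC, 2 bases and TTTC. Ly86 holds neither set of letters in this window. The response-element letters occurred in 421 of 13605 searched genes (3.09%), in 7 of 56 searched genes that fell (12.5%) and in 4 of 61 that rose (6.56%). The 7 are Aif1, Apobec3, Coro2a, Ctss, Dpp4, Trim30a and Trim30d, and the 4 are Dhrs3, Fosl2, Gbp2 and Vegfa. The composite-element letters occurred in 2.45% of genes, in 3 of the 56 (Atg5, Bach2 and Dapp1) and in 1 of the 61 (Lpcat2). A match is a description of these letters and no binding was measured.

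Other large falls lay outside the lists. Lsp1, an actin-binding protein of leukocytes, was at 8.26, 7.17 and 8.88 in wild-type and 5.28, 4.53 and 4.80 in knockout-labelled pools (difference -3.23, SE 0.33, adjusted p 0.000183). Marcks, an actin-crosslinking substrate of protein kinase C, was at 8.60, 8.15 and 8.51 against 6.37, 5.65 and 5.16, 6.47-fold lower (difference -2.69, SE 0.30, adjusted p 0.000369). All wild-type pools lay above all knockout-labelled pools for both genes. Map7, a microtubule-associated protein, fell by 2.98 (SE 0.40, adjusted p 0.00142), and Basp1, a membrane protein related to Marcks in its biochemistry, fell by 1.76 (SE 0.23, adjusted p 0.00133). Bex1 fell by 2.45 (SE 0.45, adjusted p 0.0155), from 6.32 to 6.84 in wild-type pools to 5.35, 4.26 and 2.95, and lost its call without knockout-labelled pool 2 or wild-type pool 1 or 3 (adjusted p up to 0.0703). Among genes named after their values were seen, Marcksl1, a relative of Marcks, fell by 0.92 (SE 0.15, adjusted p 0.00508), Cotl1, an actin-binding protein, by 1.15 (SE 0.18, adjusted p 0.00446), and Selplg, the P-selectin ligand, by 1.19 (SE 0.17, adjusted p 0.00259).

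Aff3, a nuclear protein of lymphoid cells and a partner in leukaemia fusions, was at 9.45, 9.05 and 8.79 in wild-type and 6.30, 5.70 and 5.69 in knockout-labelled pools, 9.2-fold lower (difference -3.20, SE 0.24, adjusted p 7.52e-06). Wild-type pool 3 was the wild-type array nearest to the knockout-labelled pools there. Bach2, a repressor known from B and T cells, was at 6.61, 6.97 and 6.47 against 5.49, 5.46 and 5.09 (difference -1.34, SE 0.20, adjusted p 0.00361), and its other probe sets differed by -1.26 to -0.22. It was the only called gene among 31 PU.1, C/EBP and myeloid fate factors, whose median was 0.13. Cd34, a sialomucin of stem and progenitor cells, was at 9.78, 9.89 and 9.25 against 8.81, 8.54 and 7.80 (difference -1.25, SE 0.23, adjusted p 0.0157). It was the only called gene of 25 stem and early progenitor genes, and lost its call without wild-type pool 1 or 2 (adjusted p up to 0.0808).

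Of 19 conventional dendritic cell genes, 2 fell and none rose. Dpp4, the peptidase CD26, was at 8.45, 7.84 and 8.19 in wild-type and 5.27, 5.84 and 6.37 in knockout-labelled pools (difference -2.33, SE 0.37, adjusted p 0.00499), while its other probe set differed by -0.29. Cd24a, a small glycoprotein that marks a dendritic cell subset and also erythroid and B lineage cells, was at 10.72, 10.73 and 11.28 against 8.53, 8.43 and 8.83, 4.96-fold lower (difference -2.31, SE 0.26, adjusted p 0.000369). Its other probe set differed by -2.44. The list's median was -0.07. None of 14 plasmacytoid dendritic cell genes was called, and their median was 0.00.

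**Figure D3:**
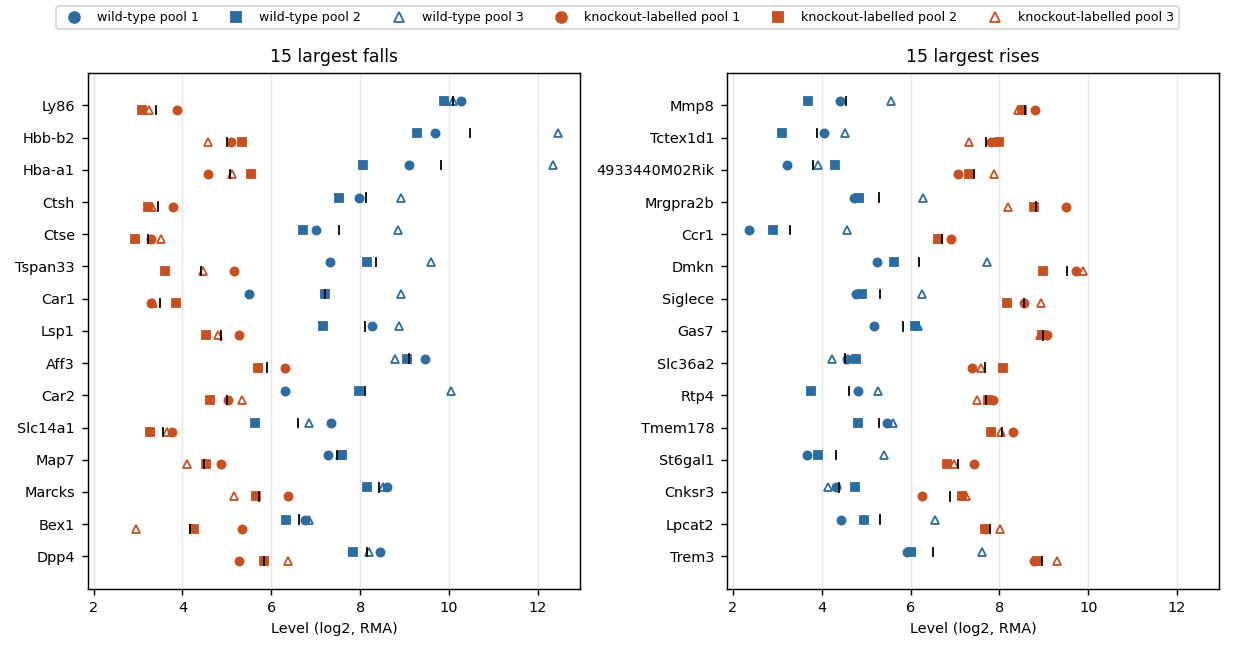
Log2 level in each pool for the 15 largest falls (left) and the 15 largest rises (right) among called genes (blue, wild-type; orange, knockout-labelled; circle, square and open triangle, pools 1, 2 and 3; black tick, group mean). The groups do not overlap in any called gene, and wild-type pool 3 lies toward higher levels for the globins, Car1, Car2, Mmp8, Ccr1 and Siglece.

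Among the lists, which were chosen with earlier results of these data known, the erythroid list had the most falls. Of its 28 measured members 5 fell and none rose, while 0.45% of all genes were called lower. Hbb-b2, a beta globin chain, was at 9.68, 9.29 and 12.45 in the wild-type pools and 5.09, 5.35 and 4.57 in the knockout-labelled pools (difference -5.47, SE 0.66, adjusted p 0.000711). Hba-a1, an alpha globin chain, was at 9.10, 8.06 and 12.34 against 4.57, 5.54 and 5.12 (difference -4.76, SE 0.89, adjusted p 0.0169). Globin genes have near-identical copies that share probe sequence, so the copy cannot be told. The other Hbb-b2 probe sets differed by -4.67 to -0.74 and the other Hba-a1 probe sets by -6.14 to -3.32. Wild-type pool 3 was the highest array for both, but the other wild-type pools also lay above every knockout-labelled pool. The carbonic anhydrases of red cells fell too. Car1 was at 5.50, 7.20 and 8.93 against 3.28, 3.85 and 3.34 (difference -3.72, SE 0.56, adjusted p 0.00359), and Car2 at 6.30, 7.98 and 10.05 against 5.02, 4.62 and 5.35 (difference -3.12, SE 0.65, adjusted p 0.0338). Tspan33, a tetraspanin of erythroid progenitors and activated B cells, was at 7.33, 8.15 and 9.60 against 5.15, 3.61 and 4.46 (difference -3.95, SE 0.47, adjusted p 0.000613), and its other probe sets differed by -4.29 to -0.17.

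Without wild-type pool 3, 5 erythroid genes were called lower, and the differences were -4.49 for Hbb-b2, -3.51 for Hba-a1, -2.86 for Car1, -2.15 for Car2 and -3.33 for Tspan33. Hba-a1 lost its call without knockout-labelled pool 1 or 3 (adjusted p up to 0.0671), and Car2 on leaving out any 1 knockout-labelled pool, or wild-type pool 2 (adjusted p up to 0.136). The list's median was -1.05 with all arrays and -0.43 without wild-type pool 3, so its size depends on that array. Klf1, the erythroid master regulator, was at 4.61, 4.83 and 7.67 against 3.83, 3.59 and 3.94 and did not pass the test (adjusted p 0.216). Alas2, the erythroid haem synthesis enzyme, was at 4.87, 4.83 and 7.81 against 4.63, 5.15 and 4.60 (adjusted p 0.819), and was high in wild-type pool 3 alone. Slc14a1, the urea transporter of red cells, fell by 3.05 (SE 0.48, adjusted p 0.00437), from 7.34, 5.63 and 6.85 to 3.76, 3.27 and 3.64. None of these called genes passed in the fit of the 6 arrays alone. There the limma adjusted p was 0.0643 for Hbb-b2, 0.165 for Hba-a1, 0.159 for Car1, 0.272 for Car2, 0.0813 for Tspan33 and 0.0581 for Slc14a1. The part of erythroid cells in the wild-type sorts in these differences was not tested.

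None of 19 megakaryocyte and platelet genes was called. Pf4, a platelet chemokine, was at 2.82, 5.46 and 8.40 in the wild-type pools and 2.48 to 2.88 in the knockout-labelled pools (adjusted p 0.2), and F2r, the thrombin receptor, was at 5.61, 4.56 and 6.64 against 2.68, 2.74 and 3.17 (difference -2.74, SE 0.62, adjusted p 0.0581). The list's median was -0.35, and -0.23 without wild-type pool 3. None of the 18 eosinophil, basophil and mast cell genes was called either, and their median went from -0.41 to 0.04 without that pool.

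The largest rise among known genes was in Mmp8, the neutrophil collagenase of secondary granules. It was at 4.41, 3.69 and 5.56 in the wild-type pools and 8.81, 8.51 and 8.41 in the knockout-labelled pools (difference 4.03, SE 0.44, adjusted p 0.000322). Its wild-type values lay around the array median in pools 1 and 2, so no fold is given. Mrgpra2b, a receptor of neutrophils, was at 4.73, 4.83 and 6.29 against 9.49, 8.79 and 8.20 (difference 3.54, SE 0.44, adjusted p 0.000856). Trem3, an activating myeloid receptor, was at 5.91, 6.00 and 7.62 against 8.78, 8.84 and 9.30 (difference 2.46, SE 0.45, adjusted p 0.0148), and lost its call without knockout-labelled pool 3 or wild-type pool 1 or 2 (adjusted p up to 0.0813). In each of these genes wild-type pool 3 was the wild-type array nearest to the knockout-labelled pools. These were the 3 called genes of the list of 26 secondary and tertiary granule genes, none of which fell. Of the 3, Mmp8 encodes a granule protein, while Mrgpra2b and Trem3 encode receptors. Trem3 is also counted in the list of Siglec, TREM and lectin receptors.

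The granule list changed with the arrays used, and its median ran from -0.26 to 0.88 on leaving out each array in turn. Without wild-type pool 3, 6 of the 26 genes were higher, and the list's median went from 0.06 to 0.88. S100a8, a calprotectin subunit of neutrophils and monocytes, was at 6.22, 3.62 and 11.87 in the wild-type pools and 9.48, 8.02 and 9.37 in the knockout-labelled pools. Its difference was 1.72 with all arrays (adjusted p 0.871) and 4.04 without wild-type pool 3 (adjusted p 0.0117). S100a9, its partner subunit, was at 6.37, 5.08 and 12.17 against 9.71, 7.82 and 9.65, and went from 1.19 (adjusted p 0.935) to 3.34 (adjusted p 0.0224). Ltf, the lactoferrin of secondary granules, was at 3.98, 4.29 and 8.65 against 5.45, 4.52 and 5.17 and passed in neither fit (adjusted p 0.975 and 0.874). The knockout-labelled pools thus lay above wild-type pools 1 and 2 and below wild-type pool 3 for S100a8, S100a9 and Ltf. Wild-type pool 3 was set apart for high levels of such genes, so leaving it out favours a rise in them. The counts and adjusted p-values without it describe these arrays and are no evidence of a rise.

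The 17 primary granule genes, made at the promyelocyte stage, had a mean level of 9.10, 8.89 and 9.93 in the wild-type pools and 9.87, 9.74 and 9.92 in the knockout-labelled pools. The member that passed the test was Mgst1, which encodes a microsomal glutathione transferase rather than a granule protein. Mgst1 rose from 6.31, 6.14 and 7.32 to 8.43, 8.16 and 8.25 (difference 1.69, SE 0.35, adjusted p 0.0352). Its other probe set differed by -0.01, and the call was lost on leaving out any 1 knockout-labelled pool, or wild-type pool 1 or 2 (adjusted p up to 0.164). Elane, neutrophil elastase, was at 9.98, 9.92 and 10.96 against 11.67, 11.43 and 11.72, without overlap but short of the threshold (difference 1.32, adjusted p 0.413). Mpo, myeloperoxidase, was at 12.64 to 12.70 against 12.74 to 12.85 (adjusted p 0.993). The list's median was 0.57, and 0.84 without wild-type pool 3, when 3 of the 17 were called higher, a descriptive count.

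Of 26 chemokines and receptors, 3 rose and none fell, with a median of 0.01. Ccr2, the receptor through which monocytes leave the marrow, was at 7.51, 7.21 and 8.13 in wild-type and 9.86, 9.99 and 10.08 in knockout-labelled pools, 5.14-fold higher (difference 2.36, SE 0.24, adjusted p 0.000183). Its 3 other probe sets differed by 1.20 to 1.91. Ccr1, a receptor of neutrophils and monocytes, was at 2.37, 2.91 and 4.58 against 6.92, 6.61 and 6.61 (difference 3.43, SE 0.49, adjusted p 0.00248). Ccl2, the ligand of Ccr2, was at 3.90, 3.71 and 3.62 against 5.15, 4.65 and 4.37 (difference 0.98, SE 0.20, adjusted p 0.0269). The groups did not overlap in these genes, but the Ccl2 call was lost in every leave-one-out fit other than that without knockout-labelled pool 3 (adjusted p up to 0.0916).

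Of 31 monocyte and macrophage genes, 2 rose and 1 fell. Besides Ccr2, Fcgr3, a low-affinity IgG receptor, rose from 7.08, 7.31 and 8.47 to 9.35, 9.39 and 9.34, 3.34-fold (difference 1.74, SE 0.26, adjusted p 0.00362). Ms4a4c, a four-span membrane protein of monocytes and macrophages, fell from 7.83, 8.02 and 9.21 to 6.56, 6.23 and 6.20 (difference -2.02, SE 0.34, adjusted p 0.00684). Wild-type pool 3 was the highest wild-type array for both, nearest to the knockout-labelled pools for Fcgr3 and farthest from them for Ms4a4c. The list's median was -0.14, and 0.10 without that array.

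Of 21 genes of the Siglec, TREM and lectin receptors, 3 rose and none fell: Siglece, Cd33 and Trem3. Siglece, an inhibitory sialic acid receptor of myeloid cells, was at 4.78, 4.90 and 6.26 in wild-type and 8.56, 8.17 and 8.94 in knockout-labelled pools (difference 3.24, SE 0.43, adjusted p 0.00142). Cd33, another such receptor, was at 5.04, 4.74 and 4.91 against 7.17, 5.68 and 5.84 (difference 1.33, SE 0.29, adjusted p 0.0426), and lost its call without any one of the wild-type pools (adjusted p up to 0.144). The median of the 21 genes was -0.09, and 0.07 without wild-type pool 3.

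Interferon-stimulated genes went both ways, with 3 of 33 higher and 2 lower, and a median of 0.23. Rtp4, a chaperone induced by interferon, was at 4.82, 3.77 and 5.26 in wild-type and 7.85, 7.75 and 7.50 in knockout-labelled pools (difference 3.08, SE 0.43, adjusted p 0.00202). Gbp2, a guanylate-binding GTPase, rose from 4.55, 4.28 and 3.95 to 5.90, 6.06 and 5.29 (difference 1.49, SE 0.28, adjusted p 0.0175), and Ddx58, the RNA sensor RIG-I, from 4.95, 4.58 and 5.20 to 6.94, 6.68 and 5.45 (difference 1.45, SE 0.32, adjusted p 0.0479). The groups did not overlap, though knockout-labelled pool 3 came within a short distance of wild-type pool 3 for Ddx58. Gbp2 lost its call without knockout-labelled pool 1 or 2 or wild-type pool 2 or 3 (adjusted p up to 0.0958), and Ddx58 on leaving out any 1 array other than knockout-labelled pool 3 (adjusted p up to 0.189). The other Ddx58 probe sets differed by 0.01 to 0.86.

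The interferon-stimulated genes that fell were Trim30a and Ly6e. Trim30a, a regulator of Toll-like receptor signalling, went from 7.30, 6.72 and 7.47 to 5.82, 5.92 and 5.74 (difference -1.34, SE 0.20, adjusted p 0.00359). Ly6e, a small surface protein, went from 11.68, 11.61 and 11.70 to 10.92, 10.89 and 10.77, 1.75-fold lower (difference -0.81, SE 0.14, adjusted p 0.00855). Both kept their call whichever array was left out, as Rtp4 did. Of cytokine receptors of progenitors, Ifngr1, a chain of the interferon gamma receptor, rose from 8.51, 7.58 and 8.45 to 9.27, 9.67 and 9.48 (difference 1.29, SE 0.25, adjusted p 0.0185). Il10ra, the interleukin 10 receptor, fell from 5.73, 5.45 and 5.63 to 4.53, 5.01 and 4.53 (difference -0.91, SE 0.16, adjusted p 0.00944). Ifngr1 lost its call without knockout-labelled pool 2 or 3 or wild-type pool 2 (adjusted p up to 0.0958) and Il10ra without wild-type pool 1 (adjusted p 0.0591); the median of these 23 receptors was -0.07.

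Other large rises fell in none of the lists. Slc36a2, an amino acid transporter, was at 4.56, 4.78 and 4.23 in wild-type and 7.38, 8.08 and 7.59 in knockout-labelled pools (difference 3.17, SE 0.22, adjusted p 3.91e-06). Its wild-type values lay around the array median. Tmem178, a membrane protein of the endoplasmic reticulum, was at 5.48, 4.81 and 5.60 against 8.31, 7.81 and 8.03 (difference 2.76, SE 0.25, adjusted p 6e-05). In both genes wild-type pool 3 did not stand apart. Gas7, a cytoskeletal protein, rose by 3.18 (SE 0.51, adjusted p 0.00512) and its 4 other probe sets differed by 0.78 to 3.21. Dmkn, a secreted protein known from skin, was at 5.24, 5.62 and 7.72 against 9.72, 8.99 and 9.88 (difference 3.34, SE 0.54, adjusted p 0.00512). Tctex1d1, a dynein light chain relative, rose by 3.81 (SE 0.36, adjusted p 7.19e-05), Cnksr3 by 2.49 (SE 0.28, adjusted p 0.000369) and the RIKEN gene 4933440M02Rik by 3.61 (SE 0.24, adjusted p 2.77e-06).

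St6gal1, a sialyltransferase, rose by 2.74 (SE 0.46, adjusted p 0.00799) and lost its call without wild-type pool 1 (adjusted p 0.0502); its other probe set differed by 0.23. Lpcat2, an enzyme of platelet-activating factor synthesis, rose by 2.47 (SE 0.46, adjusted p 0.0151). Its other probe set differed by -0.12, and the call was lost without knockout-labelled pool 2 or 3 or wild-type pool 1 or 2 (adjusted p up to 0.0762). Of 12 B cell genes, Vpreb1, a surrogate light chain of B cell precursors, rose from 4.61, 4.36 and 4.91 to 7.66, 6.25 and 7.35 (difference 2.46, SE 0.39, adjusted p 0.00499), while 7 of the 12 lay at or under the array median in all 6 arrays. Of 14 T cell genes, Cd28, a costimulatory receptor, rose from 3.35, 3.91 and 4.01 to 4.63, 5.61 and 5.16 (difference 1.37, SE 0.25, adjusted p 0.014), and lost its call without knockout-labelled pool 2 or wild-type pool 1 (adjusted p up to 0.0761).

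Some lists had no called gene. None of 35 cell cycle genes passed (median -0.19), with Ccnd1, cyclin D1, nearest at -0.86 (SE 0.23, adjusted p 0.13). None of 15 BCL2 family genes passed (median -0.04), and none of 18 immediate early and stress genes (median 0.39), of which Ier3 differed by 1.25 (SE 0.34, adjusted p 0.146). Among 15 NK cell genes none passed; their mean level was 5.08 in wild-type pool 3 and 3.89 to 4.01 in the other 5 arrays, and their median was -0.12, and 0.09 without that pool. Nor did any of 12 stroma and endothelium genes pass (median -0.03). Of 4 sex-linked genes none passed, but the pools differed: Eif2s3y, from the Y chromosome, was at 4.96, 5.09 and 7.13 in wild-type and 4.86, 2.45 and 6.70 in knockout-labelled pools, so the groups overlapped widely and knockout-labelled pool 2 was lowest.

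The design text sets differences between the MDP groups against the mature cells, so the 155 genes were read in spleen macrophages and granulocytes, on arrays not shared with this comparison. Between those cells 31.2% of all genes were called, 18.4% higher in macrophages and 12.8% higher in granulocytes. Of the 77 genes that fell in the knockout-labelled MDPs, 37 were higher in macrophages (48.1%) and 9 higher in granulocytes (11.7%). Of the 78 that rose, 20 were higher in granulocytes (25.6%) and 13 higher in macrophages (16.7%). The median macrophage minus granulocyte difference was 0.40 over the falls, -0.19 over the rises and -0.09 over all genes. The called genes were not matched to the rest for expression level or spread. A gene with a small shared spread passes more readily in both comparisons. Choosing the 155 by their adjusted p can therefore raise these shares, by an amount that was not tested.

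**Figure D4:**
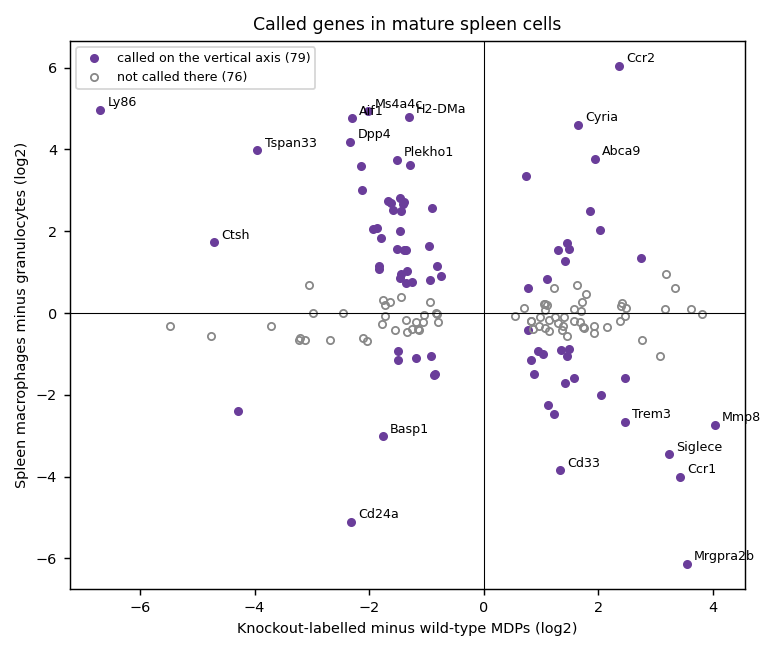
For the 155 called genes, the log2 difference between spleen macrophages and granulocytes (vertical) against that between knockout-labelled and wild-type MDPs (horizontal). Purple points are the 79 genes also called between the spleen cells and grey points the 76 that were not; falls such as Ly86 lie on the macrophage side, above 0, and Ccr2 is a rise on that side.

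Among the falls, Ly86 was at 10.75 ± 0.19 in macrophages and 5.78 ± 0.55 in granulocytes (mean ± SD, n = 3 each), a difference of 4.97 (SE 0.29, limma adjusted p 1.41e-08). Ms4a4c differed by 4.93 (SE 0.34, adjusted p 8.23e-08) and Aif1 by 4.76 (SE 0.50, adjusted p 4.35e-06), both toward macrophages. Ctse differed by -2.39 (SE 0.61, adjusted p 0.00767) and Basp1 and Cd24a were likewise called toward granulocytes. Among the rises, Siglece was at 7.32 ± 0.19 in macrophages and 10.78 ± 0.08 in granulocytes (n = 3 each), and Mmp8 differed by -2.73 (SE 0.44, adjusted p 0.00023). Ccr2 ran toward macrophages, at 10.12 ± 0.15 against 4.07 ± 0.14 (n = 3 each; difference 6.05, SE 0.24, adjusted p 3.03e-10), as did Abca9, a lipid transporter that rose by 1.94 (SE 0.29, adjusted p 0.00359) in the knockout-labelled MDPs, and Cyria, a regulator of actin, which rose by 1.64 (SE 0.30, adjusted p 0.0157). Cyria lost its call in the MDPs without knockout-labelled pool 1 or 2 or wild-type pool 1 or 2 (adjusted p up to 0.0813).

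The 155 genes were also read between VENUS-negative (2 pools) and VENUS-positive (3 pools) MDPs of reporter mice, whose labels give an IRF8-deficient genotype to both. The levels on those arrays are not part of the knockout difference, but the arrays entered the shared estimate of spread. The limit given for the shares in the spleen cells holds here too. Between them 5.87% of all genes were called, 2.85% higher and 3.02% lower in VENUS-negative cells. Of the 77 falls, 37 were lower in VENUS-negative cells (48.1% of the falls, and 7.17% of the 516 genes lower there) and 9 were higher (11.7%). Of the 78 rises, 8 were higher (10.3%) and 10 lower (12.8%). The median VENUS difference was -0.86 over the falls and -0.06 over the rises.

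**Figure D5:**
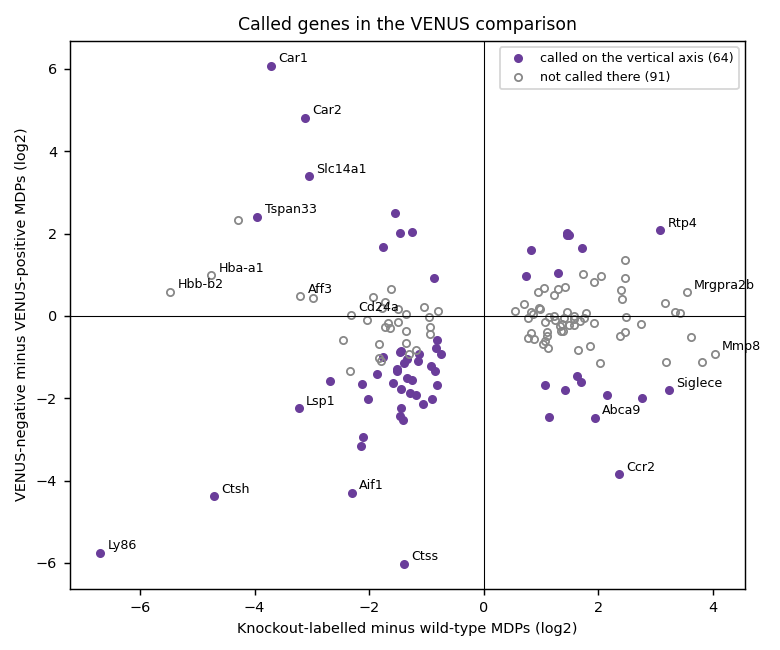
For the 155 called genes, the log2 difference between VENUS-negative and VENUS-positive MDPs (vertical) against that between knockout-labelled and wild-type MDPs (horizontal). Coloured points are the 64 genes also called in the VENUS comparison and grey points the 91 that were not; Ly86 and Ctsh are low in both, and Car1 and Ccr2 lie on opposite sides.

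Whether the differences themselves differed was tested in the same fit. Of all genes, 3.6% were called in this test, and of the 155, 73 were called, 49 with a higher (1.86% of all genes) and 24 with a lower (1.74%) knockout difference. The 155 were chosen for their knockout difference, which is part of this test, so a count above that of all genes is built in and nothing is read from it. For Ly86 the VENUS difference was -5.75 (adjusted p 5.06e-08), and it differed from the knockout difference by -0.94 (SE 0.43, adjusted p 0.379). For Ctsh it was -4.38 (adjusted p 1.13e-06) and the difference of differences -0.31 (SE 0.44, adjusted p 0.909). A p that misses the threshold does not show that these are alike. Ctss fell further between VENUS groups, by 6.02, than between the knockout-labelled and wild-type groups, by 1.40 (difference of differences 4.62, SE 0.34, adjusted p 1.47e-06).

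Some genes ran opposite ways in these comparisons. They were picked for a called knockout difference and an opposite VENUS difference, and both are part of the difference of differences. Its adjusted p-values therefore describe these genes and are no further evidence. Car1 was lower by 3.72 in knockout-labelled MDPs and higher by 6.08 in VENUS-negative MDPs (difference of differences -9.80, SE 0.84, adjusted p 6.71e-06). Tspan33 was lower by 3.95 and higher by 2.41 (difference of differences -6.36, SE 0.71, adjusted p 8.89e-05). Ccr2 was higher by 2.36 in knockout-labelled MDPs and differed by -3.85 in VENUS-negative MDPs (difference of differences 6.21, SE 0.36, adjusted p 2.54e-07), and Tmem178 was higher by 2.76 and differed by -1.99 (4.74, SE 0.38, adjusted p 3.34e-06). Rtp4, Gbp2 and Ddx58, the interferon-stimulated rises, were higher in VENUS-negative cells too, by 2.08 (adjusted p 0.0168), 1.96 (adjusted p 0.00119) and 1.97 (adjusted p 0.00301), and none differed between the comparisons beyond the threshold (adjusted p 0.636, 0.802 and 0.812).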

How the data were processed

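Per the submitters' processing notes, the authors made the deposited log2 values with Affymetrix Expression Console and RMA (versions not stated), at 1.73 to 13.08 over the 6 arrays compared. RMA subtracts background, quantile-normalizes and summarises the probes of a probe set; no source used here says which arrays were normalized together. Of 45037 probe sets, 28898 had 1 gene symbol, 551 several and 15588 none, and 28689 matched RefSeq by Entrez number with 0 symbols changed. Each gene was read from its brightest probe set over 17 arrays (7180 genes had several), giving 17097 genes. limma 3.58.1 in R 4.3.3 fitted 6 group means to all 17 arrays, with empirical Bayes variances and a two-sided test; p-values were adjusted by Benjamini-Hochberg over all genes, and a gene was called under 0.05. The script was tested on simulated data. SE is that of the fit, and differences are knockout-labelled minus wild-type unless named.

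Named genes are the gate genes, Irf8 and Spi1, the 15 largest called rises and falls without overlap (predicted and RIKEN genes counted, named only among the 5 largest), called members of each list up to 6 or else the 2 with the smallest p, and the 3 largest in each direction of the spleen comparison; others were chosen after their values were seen. Members and lists were chosen with earlier results of these data known. Correlations between pools of a group were 0.9687 to 0.9799 (wild-type) and 0.972 to 0.9759 (knockout-labelled), and no 2 arrays were identical. The number of arrays limits the precision. Promoter letters come from RefSeq GRCm38.p6, 250 bases upstream. Genes without an entry, and genes on chr18, were not used in the search. Alternatives were other spread models, probe set rules, a low-signal filter, repeated normalization, a pool block and leaving out each array.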

Additional observations from a re-analysis of the deposited data

How the results depend on the processing

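Of 155 genes called between knockout-labelled and wild-type MDPs, all kept their sign in the fits by gene that tested them (the low-signal filter tested 140), but 8 have another probe set of opposite sign. Array weights called 259 genes, a fit of only the 6 arrays 46, and the 6 arrays with pool number as a replicate block 2. Leaving out 1 array gave 103 to 159 calls; the count was lowest, at 103, without wild-type pool 1. Every probe set tested on its own gave 207 calls, the mean of probe sets 196, the low-signal filter 163, quantile normalization again 164, and trend with robust variances 164. Same-numbered pools had deviations from their group means correlated at 0.002, 0.079 and -0.023. With 3 arrays a group, these values cannot show whether same-numbered pools were prepared together. The 17-array fit with the replicate block called 161 genes, 139 of the 155 among them. The spleen count of 5337 became 8044 with every probe set; the VENUS count of 1003 became 1577 with every probe set and 459 with only the arrays compared. Of the uncalled genes named, some reversed. Leaving out 1 array gave Irf8 differences of -0.11 to 0.08 (above 0 on omitting wild-type pool 2 or knockout-labelled pool 3), Spi1 differences of -0.09 to 0.20 (below 0 on omitting wild-type pool 2 or 3 or knockout-labelled pool 1), and Eif2s3y differences of -2.07 to 0.06 (above 0 on omitting knockout-labelled pool 2). Array weights turned Spi1 to -0.04. The cause of these changes was not tested. Of 55 named called genes, 20 lost their call when some array was left out, 35 in the fit of only the 6 arrays and 53 with the replicate block on those arrays. Probe signals near the lower quartile, as for Ly86 and Ctsh in knockout-labelled pools, limit how far a fall can be read.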
